A study of Rattus norvegicus with 12 samples.

Results

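The genes of the cytosolic ribosomal proteins, Rps for the small and Rpl for the large subunit, were compared between the cortex of aged and young rats. They were taken by name, from the gene symbols of the array platform, as every symbol made of Rps or Rpl and a number with its usual suffixes, Rpsa, or an Rplp name, with pseudogenes left out. This gave 47 genes of the 14218 genes with a probe set of their own, 14 Rps and 33 Rpl, and they were measured by 54 probe sets (sets of short DNA probes against 1 transcript region). Each gene was represented by the probe set with its highest mean signal. Names of 5 of them, Rpl3l, Rpl7l1, Rpl26l1, Rpl39l1 and Rps27l, mark paralogs, which are duplicate genes of the standard subunit proteins. A further 36 probe sets carry the symbol of a ribosomal protein together with other symbols and were kept apart, because their signal cannot be given to a single gene. Ribosomal protein genes have many near-identical processed copies in mammalian genomes, so a probe set with a single symbol may also read a copy.

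The rats were 6 aged male Fischer 344 (F344) rats, labelled 21 to 23 months old, and 6 young male F344 rats, labelled 3 to 5 months old. All 12 rats had carried a telemetry emitter for sleep recording and had been trained in the Morris water maze before the tissue was taken. Titles of the samples name parietal cortex, while their tissue field names frontal cortex. RNA of each rat was hybridised to 1 Affymetrix RAE230 2.0 array, which gives a signal intensity per probe set. The p-values below rest on the spread between these rats. In limma the variance of each gene is also drawn toward that of all genes.

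Ribosomal proteins bind to ribosomal RNA in the nucleolus, and the subunits then leave the nucleus to translate messenger RNA in the cytoplasm. Most of the proteins are needed in equal numbers. Their messenger RNAs typically begin with a cytosine and a run of pyrimidines, the 5′ terminal oligopyrimidine (TOP) tract, through which the kinase mTOR controls their translation in growing cells. In neurons ribosomes work in the cell body and in dendrites, where local protein synthesis takes part in synaptic plasticity.

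The starts of the genes are shown because a TOP tract is the sequence feature that ribosomal protein messages are known to share. Each stretch below runs 5′ to 3′ from 10 bases before to 20 bases after the start annotated by RefSeq on the GRCr8 build, and capitals mark every run of C followed by at least 5 further C or T that begins within 10 bases of that start. Rps28, Rps15, Rps23, Rpl4, Rpl14 and Rplp0 hold such a run. Rps6, Rpsa, Rpl39 and Rps27l, of which Rps27l is a paralog, hold none that begins within 10 bases of the start. In Rpl39 a like run, left unmarked, begins beyond those 10 bases, at the end of the stretch.
Rps28 (chr7:15311314-15311343, minus strand): ccctgctcacgtgaCTCCTCTCCgctagat
Rps15 (chr7:10068096-10068125, minus strand): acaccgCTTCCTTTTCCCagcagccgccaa
Rps23 (chr2:23814507-23814536, plus strand): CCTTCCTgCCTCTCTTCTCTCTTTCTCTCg
Rpl4 (chr8:73566467-73566496, plus strand): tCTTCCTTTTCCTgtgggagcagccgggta
Rpl14 (chr8:129163610-129163639, plus strand): ggCCCTCTCCCTTCTCgctgagcgccgcca
Rplp0 (chr12:46718371-46718400, minus strand): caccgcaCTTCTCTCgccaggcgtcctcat
Rps6 (chr5:106420521-106420550, minus strand): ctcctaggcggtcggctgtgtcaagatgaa
Rpsa (chr8:128728869-128728898, plus strand): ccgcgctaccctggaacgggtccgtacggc
Rpl39 (chrX:121195877-121195906, minus strand): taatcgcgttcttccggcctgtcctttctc
Rps27l (chr8:76443648-76443677, plus strand): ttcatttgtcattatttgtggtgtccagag

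RefSeq promoter entries matched 42 of the 47 genes. Rpl7, Rpl23a, Rpl27, Rpl30 and Rps29 are named only. A tract was found in 23 of the 42 (54.8%), against 17.1% of all 33469 promoter entries, the longest run of a gene measuring 6 to 21 bases. That run began before the annotated start in 18 genes and at or after it in 5. It was present in 8 of 13 small-subunit and in 15 of 29 large-subunit genes, and in none of the 5 paralogs. Within the 300 bases of each entry and on both strands, CCGGAAG, a core of ETS factor sites, stood in 23.8% of the members and 8.7% of all entries. AAGATGG, the core of YY1 sites, stood in 19.0% and 7.0%, and the TATA box letters TATAAA in 11.9% and 14.2%. Such matches describe the letters, and annotated starts can lie some bases from the start that a tissue uses.

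No ribosomal protein gene differed between aged and young rats at an adjusted p under 0.05. All 47 genes passed the filter on low signal (log2 signal above 4.3 on at least 3 arrays) and were tested with limma among 13253 genes, with Benjamini-Hochberg adjustment over all of them, of which 0.0528% passed. At an unadjusted p up to 0.05, 2 members were higher in aged rats, Rpl39 and Rps28, and 0 were lower, while 6.49% of all genes were higher and 2.62% lower at this threshold. At an unadjusted p up to 0.01, 0 members were higher and 0 lower, against 1.92% and 0.604% of all genes. There was no member whose 6 aged rats lay entirely above (0.536% of all genes) or entirely below (0.241% of all genes) the 6 young rats. Means were higher in aged rats for 39 of the 47, against 56.9% of all genes tested, and for 38 with quantile normalization (48.2% of all genes), 34 with median centring of each array (45.6%) and 42 with centring on the brightest 10% of genes (64.1%). The median log2 difference, aged minus young, was 0.065 over the members and 0.024 over all genes.

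The direction differed between members with bright and with dim probe sets, split at a log2 signal of 11 after the data were seen. Of the 9 dim members 5 were paralogs, all with a lower log2 mean in aged rats. Of the 42 members without a paralog name 39 were higher. Signal level and paralog status can therefore not be told apart here. The 38 members with a mean log2 signal above 11, 12 Rps and 26 Rpl, all belonged to the brightest 10% of the genes tested, and 37 of them were higher in aged rats by their means, with a median of 0.067. Among the brightest 10% as a whole, 1325 genes, 37.7% were higher, and their median was -0.022 with the members and -0.024 without them. Rpl23a, at -0.019, was the bright member with a lower mean in aged rats. Fold differences of these 38 genes, aged over young, ran from 0.987 to 1.12 with a median of 1.05, and the standard errors of the log2 differences from 0.047 to 0.13. The widest reach of any of their 95% intervals was a fold of 0.819 at the lower and 1.26 at the upper end. A difference of a few percent in a single gene was therefore not resolved with 6 rats per group.

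**Figure D1:**
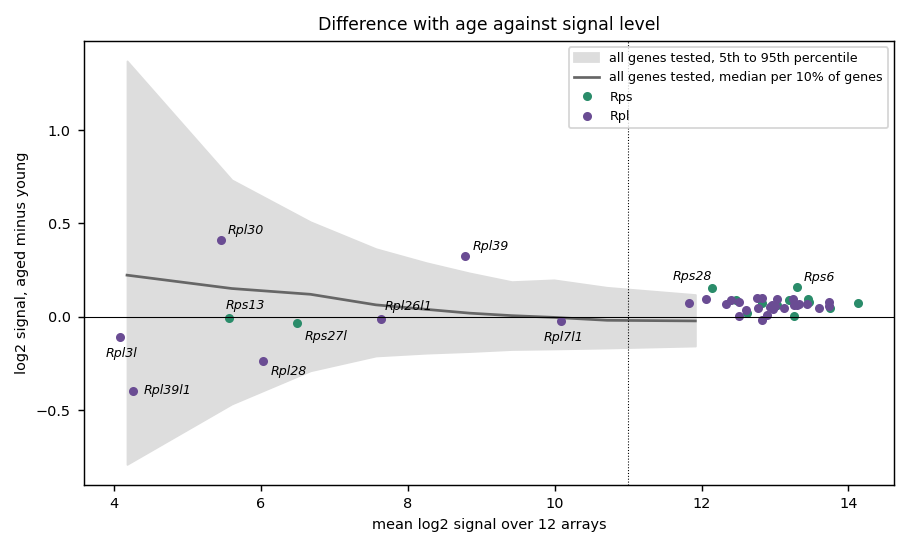
Difference in log2 signal, aged minus young (y axis), against mean log2 signal over 12 arrays (x axis) for the 47 ribosomal protein genes, with the median (line) and the 5th to 95th percentile (grey) of all genes tested in each 10% of genes by signal. Right of the dotted line at 11 lie 38 members, 37 of them above 0; of the 9 to its left, 2 lie above 0.

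Among the small-subunit proteins Rps28 and Rps6 had the largest differences. Rps28, which lies where messenger RNA leaves the small subunit, had signals of 4330, 4670 and 5469 in aged rats (lowest, median, highest), against 3959, 4208 and 4696 in young rats. The log2 difference was 0.16 (standard error 0.070, adjusted p = 0.536 from limma). All 6 aged rats lay above the young median, but the ranges overlapped, as young rats 3 and 4 were above the lowest aged rats. Rps6, the substrate of S6 kinase downstream of mTOR, had 9451, 10435 and 12982 in aged rats, against 8984, 9288 and 10487 in young rats. Its log2 difference was 0.16 (standard error 0.077, adjusted p = 0.560). Aged rat 2 stood well above the other aged rats for Rps6, whose signals overlapped with those of young rats.

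Rpsa, also known as the precursor of a laminin receptor, showed the smallest error of the bright small-subunit members. Its signals were 5500, 5873 and 6043 in aged rats, against 5213, 5457 and 5778 in young rats, a log2 difference of 0.090 (standard error 0.047, adjusted p = 0.595). Each aged rat was above the young median, and 3 of the 6 young rats lay above the lowest aged rat. The 2 further probe sets of Rpsa, whose names mark probes that also match other transcripts, gave log2 differences of 0.19 and 0.26, both higher in aged rats and neither past the test (adjusted p = 0.687 and 0.691 in the fit of every probe set). Rps16, whose tail reaches the transfer RNA in the peptidyl site, had a log2 difference of 0.090, and Rps15a, a protein bound to the platform of the small subunit, 0.095. Rps15, near the decoding site, had 0.071. In aged rats the Rps16 signals ran from 8535 to 11049, against 8390 to 9976 in young rats, so the aged range covers almost the whole of the young range.

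Log2 differences of the other 6 bright small-subunit genes ran from 0.0055 to 0.079. Rps29, a zinc-binding protein of the head of the small subunit, averaged 18388 ± 1626 in aged rats and 17465 ± 1759 in young rats (SD, n = 6 each). Rps23, which lines the decoding centre, averaged 14092 ± 1332 in aged rats and 13659 ± 1366 in young rats. For both genes the difference between the groups was smaller than the SD within either. Log2 differences of Rps3a and Rps3 were 0.079 and 0.065, and those of Rps9 and Rps24 0.018 and 0.0055.

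Among the large-subunit proteins Rpl39 had the smallest p-value of all members. Rpl39, a very small protein that lines the tunnel through which the new peptide chain leaves, had signals of 450.7, 502.8 and 526.8 in aged rats, against 308.4, 404.8 and 527.5 in young rats. This is a log2 difference of 0.33 (95% interval 0.069 to 0.58, adjusted p = 0.443 from limma). The 6 aged rats lay close together, just under young rat 5, and the other 5 young rats were all below the lowest aged rat. Rpl4, which forms a narrow part of the same tunnel, had 6813, 7107 and 7684 in aged rats, against 6291, 6636 and 7081 in young rats, a log2 difference of 0.10 (standard error 0.050, adjusted p = 0.568). Rpl14, on the solvent side of the subunit, had 4222, 4442 and 4555 in aged rats, against 3880, 4135 and 4442 in young rats, a log2 difference of 0.094 (standard error 0.048, adjusted p = 0.583). In both genes all 6 aged rats were above the young median and the groups overlapped.

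Rplp0, the base of the stalk that binds translation factors, averaged 5569 ± 324 in aged rats and 5238 ± 417 in young rats (SD, n = 6 each). Rpl7a averaged 10057 ± 709 in aged rats and 9407 ± 758 in young rats, with a log2 difference of 0.097, and all 6 aged rats lay above the young median. Rpl5 and Rpl11 carry the 5S ribosomal RNA into the large subunit and can hold back the p53 regulator Mdm2. Rpl5 had a log2 difference of 0.067 (95% interval -0.12 to 0.26) and Rpl11 one of 0.0094 (95% interval -0.14 to 0.16). For Rpl11, 2 of 6 aged rats were above the young median. Rpl21, whose aged signals ran from 3822 to 7454 against 5436 to 6470 in young rats, had the widest error of the bright members, and aged rat 2 gave its lowest value. The stalk proteins Rplp1 and Rplp2, the fusion gene Rps27a and Rpl10 were not analysed here, since no probe set carries their symbol alone.

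**Figure D2:**
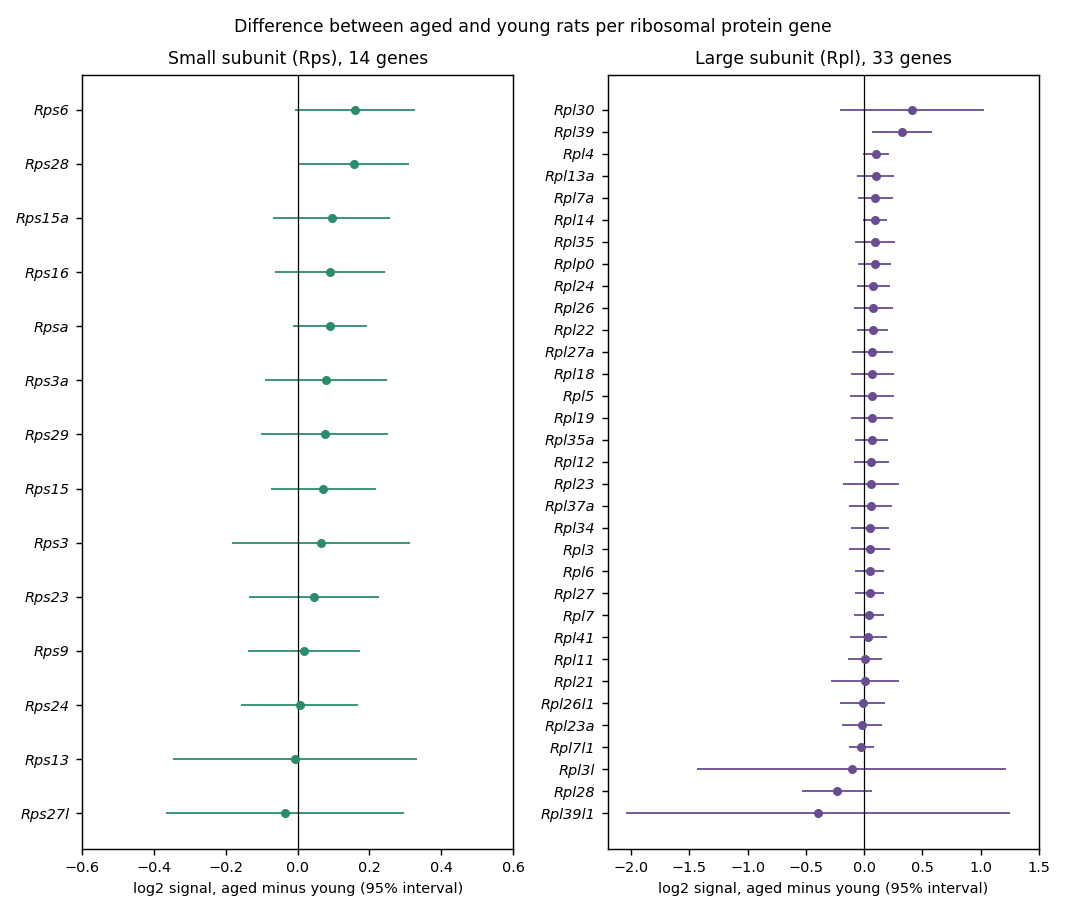
Log2 difference, aged minus young, with its 95% interval from limma (x axis; the ranges of both panels differ) for each small-subunit (left) and large-subunit (right) gene (y axis). The interval lies above 0 for Rps28 and Rpl39, and the paralogs Rpl3l and Rpl39l1 have the widest intervals.

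The 9 members with a mean log2 signal up to 11, 5 of them paralogs, did not share the direction of the bright ones. Of these, Rpl39 and Rpl30 were higher in aged rats by their means and the other 7 lower. Rpl30, a protein of the large subunit, had signals of 36.8, 47.8 and 90.0 in aged rats, against 19.4, 41.3 and 60.4 in young rats, a log2 difference of 0.41 with a standard error of 0.28 (adjusted p = 0.690). Rpl28, another core protein of the large subunit, had 44.1, 63.2 and 73.7 in aged rats, against 63.1, 69.6 and 79.5 in young rats, a log2 difference of -0.23 (standard error 0.14, adjusted p = 0.643). Aged rats 1, 3 and 5 lay inside the young range, and aged rats 2, 4 and 6 below it. Rps13, a core protein of the small subunit, had a log2 difference of -0.0078 (standard error 0.16). Group means of the bright members ran from 3568 to 18388, so the probe sets of Rpl30, Rpl28 and Rps13 read far lower. Whether these probe sets read the main message of their gene was not tested.

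All 5 paralogs had a lower log2 mean in aged rats, none was near the threshold, and the sign of 4 of them, all but Rpl7l1, turned when single rats were left out, for Rpl26l1 also with centring on the brightest 10% of genes. Rpl7l1, a relative of Rpl7 that takes part in making the large subunit, had 1023, 1082 and 1155 in aged rats, against 1046, 1109 and 1169 in young rats, and its probe sets gave log2 differences of -0.025 and -0.027. Rps27l, known in human cells as a gene induced by p53, had 76.0, 83.5 and 120.2 in aged rats, against 64.9, 96.1 and 109.8 in young rats. Rpl26l1 averaged 199 ± 21.4 in aged rats and 201 ± 21.0 in young rats (SD, n = 6 each). For these 3 genes the ranges of the groups largely overlapped. Rpl3l, the form of Rpl3 that striated muscle uses, and Rpl39l1, a relative of Rpl39 best known from the testis, were above the filter value on 7 of 12 arrays each. Their standard errors were 0.61 and 0.76 on the log2 scale, and for Rpl39l1 the mean signal was higher in aged rats (29.6 ± 30.8) than in young rats (25.2 ± 13.5) although its log2 difference was -0.40.

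**Figure D3:**
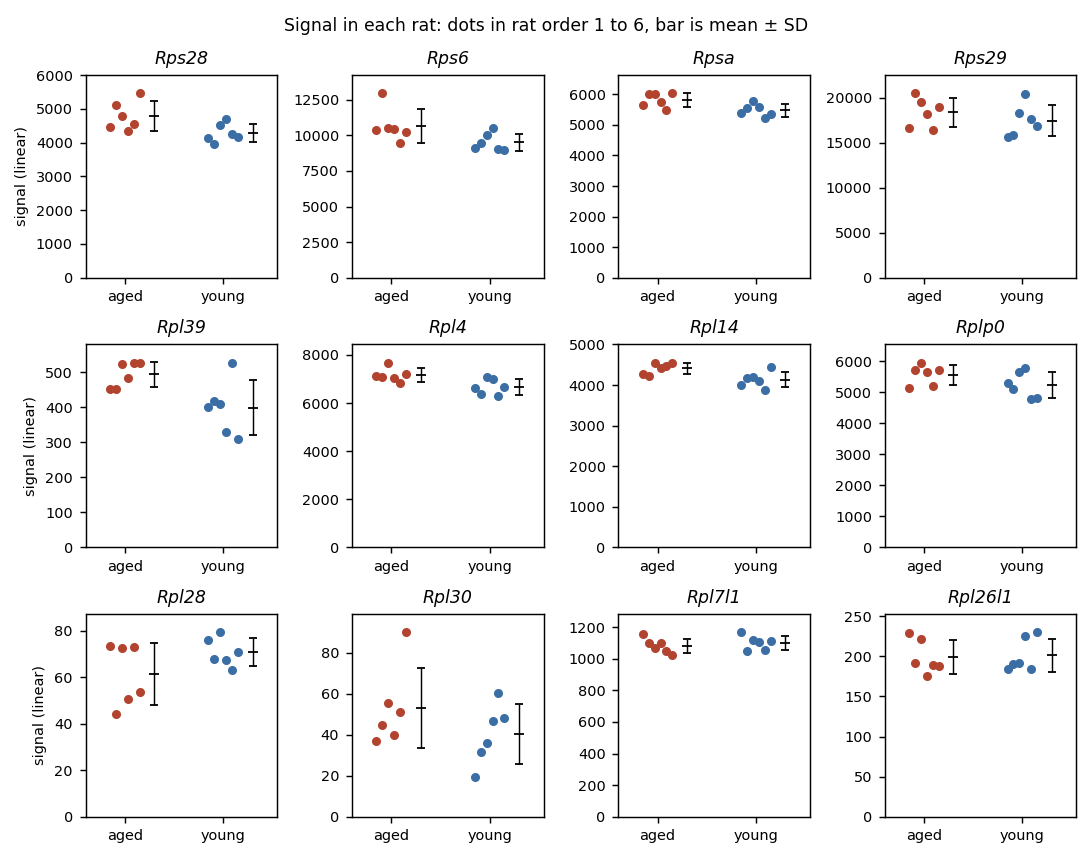
Signal (y axis, linear, from 0) of 12 ribosomal protein genes in each of the 6 aged (left) and 6 young (right) rats, with dots in the order of rat number and a bar at the mean with its SD. Rps6 of aged rat 2 (12982) lies above the other aged rats, and 5 of 6 young rats lie below all aged rats for Rpl39.

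The small and large subunits were compared by their medians, without a test. The median log2 difference was 0.073 over the 14 Rps and 0.061 over the 33 Rpl genes, which differ by 0.012. In each rat, the median deviation of the 12 bright Rps genes from the young mean was set against that of the 26 bright Rpl genes. The difference, Rps minus Rpl, ran from -0.024 to 0.079 in aged rats (median 0.0041) and from -0.039 to 0.030 in young rats (median -0.0056). The ranges overlap, and aged rat 2 gave the highest value. Without aged rat 2 the difference of the medians over all members was -0.0015. Among the rats with the lower series of sample codes (4 aged and 3 young) it was 0.0054 (Rps 0.090, Rpl 0.085), and among those with the higher series (2 aged and 3 young) 0.038 (Rps 0.022, Rpl -0.015).

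The bright members moved together from rat to rat, in both age groups. Their median deviation from the young mean was -0.021, 0.15, 0.16, 0.079, -0.046 and 0.10 on the log2 scale in aged rats 1 to 6, against -0.062, -0.072, 0.099, 0.15, -0.058 and -0.048 in young rats 1 to 6. Aged rats 2, 3, 4 and 6 and young rats 3 and 4 were high, while aged rats 1 and 5 and the other young rats were low, so the groups overlapped. All 38 bright genes were above the young mean in aged rat 3 and 9 were in aged rat 5, against 36 in young rat 3, 35 in young rat 4 and 4 in young rat 5. Within groups, the correlation of a bright member with the median of the other bright members had a median of 0.80 over 12 arrays (from -0.41 for Rpl21 to 0.98 for Rpl37a), and 0.60 after quantile normalization. The points share their array and its scaling. The count of 37 higher genes of 38 is for this reason not a count of separate observations.

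**Figure D4:**
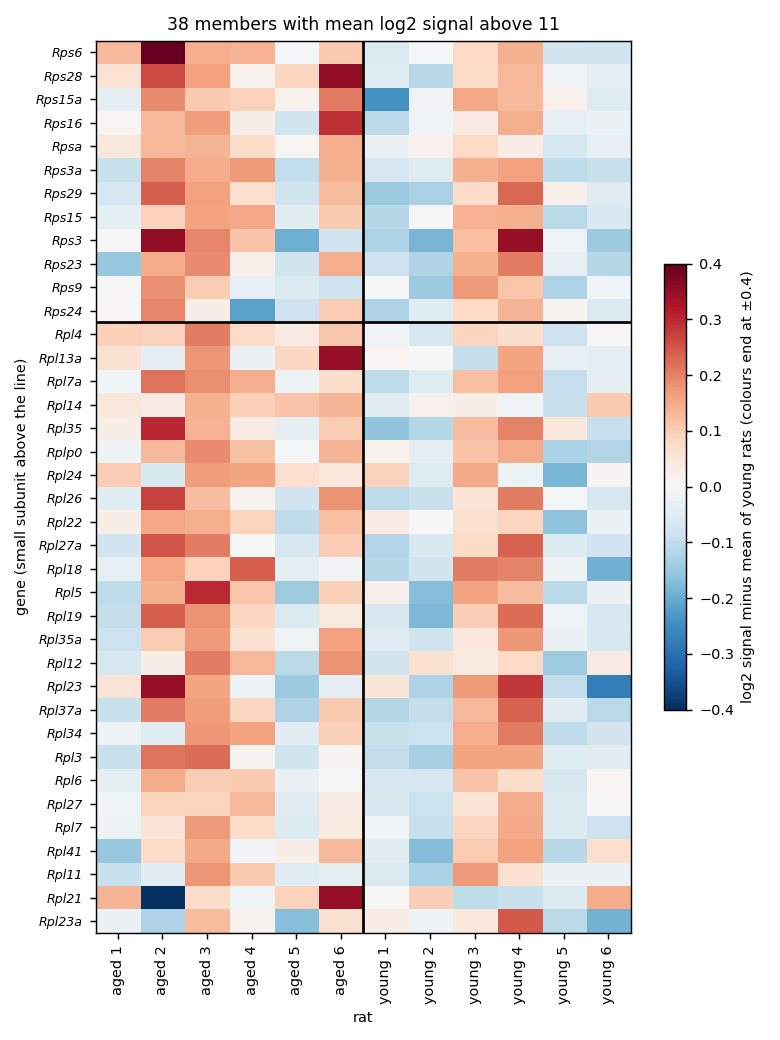
Log2 signal minus the mean of the young rats (colour, ending at ±0.4) for the 38 bright ribosomal protein genes (rows, small subunit above) in each aged (left) and young (right) rat (columns). Columns are mostly of 1 colour: aged rats 2, 3, 4 and 6 and young rats 3 and 4 are high for most genes, aged rat 5 and young rats 1, 2, 5 and 6 low.

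The size of the shift depended on which rats and which scaling were compared. Codes of the samples fall into a lower number series (4 aged and 3 young rats) and a higher series (2 aged and 3 young rats), and what they stand for is not given in the sources used here. Within the lower series 41 of the 47 members were higher in aged rats (54.6% of all genes), with a median of 0.085. Within the higher series 23 of 47 were higher (58.4% of all genes), with a median of -0.014, so the direction of the whole list did not hold there. Of the bright members, 36 and 21 of 38 were higher in the lower and the higher series, with medians of 0.094 and 0.014. Rpl39 (0.22 and 0.48), Rps28 (0.15 and 0.19), Rpsa (0.072 and 0.10), Rpl4 (0.11 and 0.076) and Rpl14 (0.079 and 0.12) were higher in aged rats in both the lower and the higher series. Rps3 had 0.23 in the lower and -0.20 in the higher series.

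Quantile normalization, which gives every array the same distribution of signals, left 38 members higher, against 48.2% of all genes, with a median of 0.059. At an unadjusted p up to 0.05, 7 members were then higher and 1 lower, against 4.02% and 3.95% of all genes, and 0 passed an adjusted p under 0.05 (0.0302% of all genes). The 7 were Rps6, Rpl39, Rps28, Rpl7a, Rpl4, Rpsa and Rpl14, and Rpl28 was the lower one. For Rps6 the 6 aged rats then lay above the 6 young rats, which was so for 0.347% of all genes (log2 difference 0.17, adjusted p = 0.527 from limma). After this step the median of the bright members was above the young mean in all 6 aged rats, from 0.015 to 0.13, against -0.067 to 0.056 in young rats.

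**Figure D5:**
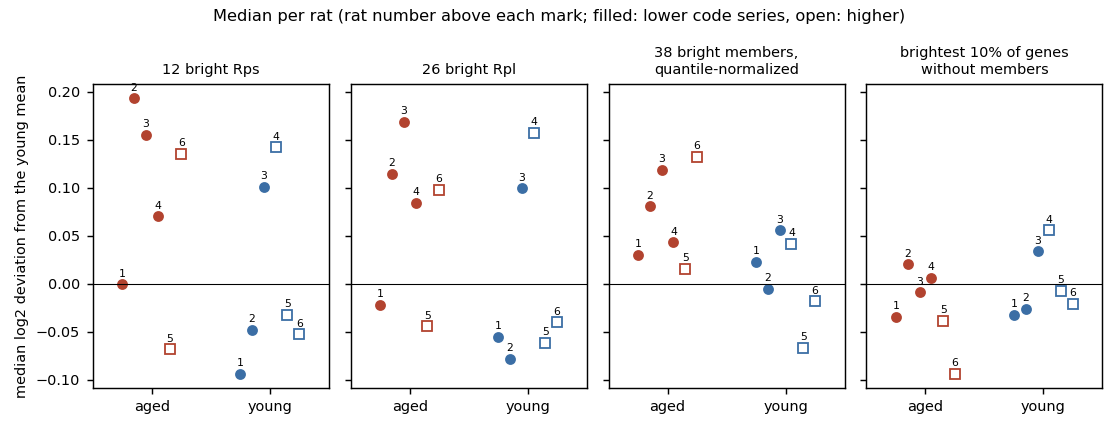
Median log2 deviation from the young mean (y axis) in each aged (left) and young (right) rat of each panel, for the bright small- and large-subunit genes, all bright members after quantile normalization, and the brightest 10% of genes without the members. Digits give the rat number, filled marks the lower and open marks the higher code series. The same rats are high in both subunits, and young rats 3 and 4 lie within the range of aged rats 2, 3, 4 and 6.

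The probe sets with several symbols gave a like picture. Of the 36, 32 were higher and 4 lower in aged rats, with a median of 0.062, while 57.7% of all probe sets were higher. At an unadjusted p up to 0.05, 1 was higher (5.67% of all probe sets), and 0 passed the adjusted threshold. Rack1, a scaffold protein on the small subunit outside the naming rule, had a log2 difference of 0.057 (standard error 0.052). Of 12 other messages known to carry a TOP tract, such as those of elongation and initiation factors, 11 were higher and 1 lower. Over all genes tested 56.9% were higher. The median of the 12 was 0.040, and 0 of them passed an unadjusted p up to 0.05 (6.49% of all genes higher, 2.62% lower). Bright members with a tract near the annotated start had a median of 0.070 (21 genes), and those without 0.068 (13 genes). Annotated starts can differ from those used, so this split does not separate messages with a TOP tract from messages without.

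Other genes of translation are given by list, beside a share of 56.9% of all genes tested with a higher mean in aged rats. Of 77 genes of ribosome biogenesis 30 were higher and 47 lower in aged rats (median -0.022), with 4 higher at an unadjusted p up to 0.05, a share below the 6.49% of all genes. Imp4 and Wdr75, which act in making the small subunit, had the smallest p of this list. Their log2 differences were 0.13 and 0.18. Of 38 initiation factor genes 16 were higher and 22 lower (median -0.024). Of the 2 with the smallest p, Eif4g3 was lower and Eif4ebp1 higher in aged rats. Eif4g3 had 1632 ± 118 in aged rats and 1886 ± 69.7 in young rats (SD, n = 6 each, adjusted p = 0.294 from limma). Eif4ebp1, the repressor of cap-dependent initiation that mTOR inactivates, had 269 ± 29.7 in aged rats and 208 ± 17.3 in young rats (SD, n = 6 each; adjusted p = 0.191 from limma). Of 13 elongation and termination genes 7 were higher (median 0.0072), of 73 mitochondrial ribosomal protein genes 31 (median -0.011), and of 20 genes that control ribosomal protein messages and mTOR 9 (median -0.018). Mycn, a transcription factor that drives ribosome production, had 145 ± 15.9 in aged rats and 201 ± 40.7 in young rats (adjusted p = 0.371). No gene of these lists passed the adjusted threshold.

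Array-wide measures and markers of cell types are given beside these values. Each array had been scaled to a like mean, and the 99th percentile of signal ran from 7122 to 7620 in aged rats and from 7094 to 7921 in young rats. The highest value belonged to young rat 4, the young rat with the highest ribosomal median. Aged rat 3, with the highest ribosomal median of all rats, had 7552. Aged rat 6, also with a high ribosomal median, had 7158, near the low end. The ratio of 3′ to 5′ probe sets of beta-actin was 2.01 to 3.07 in aged rats and 1.85 to 2.58 in young rats, highest in aged rat 6, and that of Gapdh 1.01 to 1.11 and 1.03 to 1.08. Of the markers, 9 of 10 microglial (median log2 difference 0.25), 9 of 9 oligodendrocyte (0.24), 6 of 6 endothelial (0.21) and 6 of 8 astrocyte genes (0.033) were higher in aged rats. So were 2 of 2 blood (0.37), 3 of 5 choroid plexus (0.058), 1 of 5 cortical (-0.049) and 2 of 12 neuronal genes (-0.085). Over all genes tested the share was 56.9%. Summed microglial signals were 5322 to 10492 in aged rats, against 4689 to 6395 in young rats. The highest sum was that of aged rat 6, whose C1qa signal was 3895, against 1764 to 2235 in the other aged rats. Summed neuronal signals were 69320 to 73386 in aged rats, against 69614 to 84595 in young rats. The 12 neuronal and 5 cortical markers tested were above the filter value on all arrays, and 3 of 5 choroid plexus markers were. In bulk tissue fewer cells of a type and less RNA per cell cannot be told apart, and the part of array-wide signal, RNA quality and cell makeup in the ribosomal values was not tested.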

How the data were processed

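RNA of 12 rats, 6 aged and 6 young, was measured on 1 Affymetrix RAE230 2.0 array each. For 31099 probe sets the authors deposited linear signal intensities. By the study's methods, the intensities came from gcRMA, run in Bioconductor, and the gcRMA signals were those deposited; a scaling target is given there with the array quality control. MAS5, GCRMA and R 2.7.1 appear in the submitters' processing notes. What MAS5 did, and why the values are linear, is not stated there. The arrays had a like mean but unlike 99th percentiles, 7122 to 7620 in aged and 7094 to 7921 in young rats. Which program gave the deposited values was not settled here, so they may not be gcRMA signals. Tests had been planned for gcRMA values on a log2 scale, so log2 of the deposited intensities was taken, without further normalization. The cutoff of 4.3 (a signal of 19.7 here) was set by the study on gcRMA values and may act differently on this scale.

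Symbols came from the platform annotation, updated through a RefSeq gene table (20764 gene IDs found). Of the probe sets, 20832 had 1 symbol, 436 several and 9831 none. Genes that exceeded this cutoff on 3 or more arrays (13253 of 14218) were compared with limma 3.58.1 (lmFit and eBayes, two-sided) in R 4.3.3, with Benjamini-Hochberg adjustment over all of them. Steps were tested on simulated data. The ribosomal protein list was described by counts and medians, without a test. Members, lists and alternatives were chosen with earlier results of these data known. Named genes are the 6 Rps and 6 Rpl with the smallest p, the 3 highest and 3 lowest differences, the 2 brightest and 2 dimmest, all paralogs, and Rpsa, Rps6, Rplp0, Rpl5 and Rpl11 for their roles; Rps13, Rpl21, Rpl23a, Rps3, Rps3a, Rps9, Rps24 and Rpl37a were named after their values were seen. Of each list of other translation genes the 2 with the smallest p may be named. Alternatives were other normalizations, filters, probe set rules, variance models, t-tests, the replicate number and code series as blocks, each series alone, and rats left out. The number of arrays limits the precision. Promoter entries are RefSeq's on GRCr8. Plots were made in Python 3.11.15 (matplotlib 3.10.9).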

Additional observations from a re-analysis of the deposited data

Results flagged for a closer look

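Of 54 groups of 6 rats checked (members and summary values), 1 held a rat far from the others. Rps6 had a signal of 12981.5 in aged rat 2, against 9451 to 10516 in the other aged rats, with a gap to the nearest of 0.664 of the range of the group on the log2 scale. Chance alone sets apart about 1 in 20 such groups.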

How the results depend on the processing

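No member passed an adjusted p under 0.05 under any alternative run. Of 658 values of the 22 members named by rule, 625 kept their direction and side of the threshold under alternatives. Other filters, the t-tests and the replicate block leave the log2 difference of a gene as it was. No member was past the threshold to begin with, so this count says little about how stable the differences are. The number higher at an unadjusted p up to 0.05, 2 in the comparison as reported, was 7 with quantile normalization (1 lower; 4.02% and 3.95% of all genes), 5 with the methods' t-test (6.16% of all genes) and with unequal variances (5.58%), 6 with centring on the brightest 10% (8.09%), 0 in the higher code series (6.02%), and 1 with median centring (4.49%), every probe set on its own and probe sets with several symbols (5.67% of probe sets), members above log2 11 (1.74% of the brightest 10%), and without aged rats 2 and 6 together (5.94%). Centring on the brightest 10%, the probe sets with several symbols and the split at log2 11 were chosen after seeing the data. With rats left out in turn it ran from 1 (without aged rat 2, 3 or 6 or young rat 1, 2 or 5) to 3 (without aged rat 5 or young rat 3 or 4), against 5.04% to 8.01% of all genes. At a p up to 0.01 the number was 1 with an intensity trend and robust variances (1.90% of all genes), and 0 to 1 with rats left out in turn (1 without young rat 5, 1.58%). The methods' t-test gave 0 at its p up to 0.01 and 0 after Benjamini-Hochberg. Its 5 at p up to 0.05 were Rpl39, Rps28, Rpl4, Rpl14 and Rpsa. Their unadjusted t-test p was 0.022, 0.036, 0.019, 0.018 and 0.017, against 0.017, 0.046, 0.065, 0.073 and 0.079 from limma. The paper, with its own gene filter and a t-test on gcRMA values, lists the cytosolic small ribosomal subunit among categories upregulated with age.

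In the higher code series alone 23 members were higher, with medians of -0.014 over all, 0.022 over Rps and -0.015 over Rpl; Rps29, Rpl5 and Rpl11 had -0.044, -0.020 and -0.048. With rats left out in turn the median of the members ran from 0.038 (without young rat 2) to 0.094 (without young rat 4), and the difference of the Rps and Rpl medians from -0.0015 (without aged rat 2) to 0.023. It was -0.0086 without aged rats 2 and 6. Median centring moved the median to 0.027 and 34 members were then higher.

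Members near 0 changed sign. Without aged rats 2 and 6 Rpl3l had 0.61, Rps23 -0.0055, Rps27l 0.034 and Rpl26l1 0.020. In the lower code series Rpl3l had 0.064, Rps27l 0.020 and Rpl26l1 0.11. With array weights Rpl3l had 0.34 and Rpl26l1 0.0031, with centring on the brightest 10% Rpl26l1 had 0.011, and with median centring Rpl11 had -0.029. With single rats left out Rpl39l1 ran from -0.84 to 0.026, Rpl3l from -0.46 to 0.22, Rps27l from -0.13 to 0.018, Rpl26l1 from -0.054 to 0.028, and Rpl11 from -0.024 to 0.043. The causes were not tested.

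With the replicate number as a block 1 member was higher at an unadjusted p up to 0.05 (8.23% of all genes), and the medians were as reported. The numbers only name the rats. Same-numbered aged and young rats had correlations of -0.040 to 0.16, and 5 of 6 aged rats correlated best with their own number, a hint from the data and not the design.

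Signal limits Rpl3l and Rpl39l1, which were near the filter value. The low signals of Rpl28, Rpl30 and Rps13 also limit what their probe sets say of these genes. With the stricter filter at log2 5.5, 45 members were tested. The deposited scale, unknown meaning of the code series and unresolved copies of these genes limit all values.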
